A study of Homo sapiens with 6 samples.

Results

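Potassium channel genes were examined in RNA-Seq of Caki2 cells, and comprise every gene of the files whose symbol starts with KCN. The files list 25369 genes, and 107 of them are KCN genes. Members were chosen by symbol, and those with 10 or more normalized counts in 3 samples or more were compared between the groups, which left 31. A normalized count is the number of reads on a gene divided by a size factor of the sample, and it is not divided by gene length. The family itself was selected on the fall of KCNH2 with PBRM1, which was known from these samples. The values of KCNH2 are therefore a description, given with no test, and counts of changed genes cover the other 30.

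Caki2 is a human cell line of clear cell renal cell carcinoma (ccRCC) that makes no PBRM1 protein. PBRM1 (BAF180) is the bromodomain subunit that defines the PBAF chromatin remodeling complex. Caki2+Vector cells carried an empty lentiviral vector inducible with doxycycline, and Caki2+PBRM1 cells carried the same kind of vector with PBRM1. All 6 samples received doxycycline at 2 µg/ml, and each group has 3 biological replicates, A, B and C. Each group is 1 stable line selected after infection, so a difference between the lines cannot be told apart from an effect of PBRM1, and p-values measure only the spread between these samples. In bulk RNA, fewer cells that express a gene and less of its RNA per cell cannot be told apart either.

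Potassium channels let K+ leave the cell along the gradient that the sodium pump builds, and so set the membrane potential. Voltage-gated subunits open when the membrane depolarizes, and some of them are silent modifiers that form channels only together with other subunits. Inward rectifiers (KCNJ) and tandem pore domain leak channels (KCNK) conduct near the resting potential, and KCNMA1 and the KCNN channels open when calcium rises inside the cell. Accessory subunits (KCNAB, KCNE, KCNIP, KCNMB) bind pore subunits and change their gating or trafficking. In the kidney tubule, K+ channels recycle K+ for the sodium pump at the basolateral membrane and secrete it into the urine at the apical membrane.

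Stretches of sequence before a listed start of 4 members are shown because these genes carry the differences described below. They are KCNH2, with the largest fall, KCNK2, with the largest fitted rise among tested members, and the neighbouring pair KCNJ2 and KCNJ16, which both rose. Each line gives the 250 bases before the start listed first for the gene in RefSeq on GRCh38.p14, 5′ to 3′ on the strand of the gene. Every CpG dinucleotide is in capitals. Whether the start listed first is the most upstream one was not tested. The windows are chr7:150978322-150978571, minus strand for KCNH2, chr1:215005292-215005541, plus strand for KCNK2, chr17:70169282-70169531, plus strand for KCNJ2 and chr17:70074975-70075224, plus strand for KCNJ16.
KCNH2: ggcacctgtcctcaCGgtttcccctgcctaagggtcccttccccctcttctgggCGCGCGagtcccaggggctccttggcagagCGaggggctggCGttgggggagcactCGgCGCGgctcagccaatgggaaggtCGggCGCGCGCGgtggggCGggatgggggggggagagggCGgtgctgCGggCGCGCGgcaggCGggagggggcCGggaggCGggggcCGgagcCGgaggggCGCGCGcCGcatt
KCNK2: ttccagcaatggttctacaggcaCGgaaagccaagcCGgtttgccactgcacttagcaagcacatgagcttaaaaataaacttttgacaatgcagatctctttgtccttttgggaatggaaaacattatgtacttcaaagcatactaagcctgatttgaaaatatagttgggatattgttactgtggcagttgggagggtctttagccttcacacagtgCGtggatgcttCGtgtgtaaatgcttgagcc
KCNJ2: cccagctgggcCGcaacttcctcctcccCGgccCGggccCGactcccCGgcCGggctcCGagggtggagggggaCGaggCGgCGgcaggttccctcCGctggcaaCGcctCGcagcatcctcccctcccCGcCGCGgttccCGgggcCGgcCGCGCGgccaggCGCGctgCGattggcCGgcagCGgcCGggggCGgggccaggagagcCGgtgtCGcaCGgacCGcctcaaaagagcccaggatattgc
KCNJ16: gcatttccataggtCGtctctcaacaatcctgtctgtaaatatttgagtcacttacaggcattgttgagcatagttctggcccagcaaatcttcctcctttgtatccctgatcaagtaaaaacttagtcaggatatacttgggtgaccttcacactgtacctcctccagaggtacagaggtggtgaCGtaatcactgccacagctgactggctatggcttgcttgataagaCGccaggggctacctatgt
The KCNH2 window holds 29 CpG and the KCNJ2 window 32, while those of KCNJ16 and KCNK2 hold 3 and 4. The median over all 35116 windows of this length in the table is 11. The GC box letters GGGCGG, searched on both strands, are present in the KCNH2 and KCNJ2 windows and in 42.6% of all windows. TATAAA, searched likewise, is in none of the 4 windows and in 10.7% of all windows. RefSeq lists 5 starts for KCNH2, 3 for KCNJ16, 2 for KCNK2 and 1 for KCNJ2, and the start used in Caki2 cells is not known from these data. Only 80 of the 107 members had a window in the table, so no comparison of promoters was made over the family.

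Between 7312955 and 10835355 reads fell on genes in a library, so that 3 reads equal a normalized count of 2.52 to 3.60. PBRM1 itself was at 182 to 195 in the controls and at 2432 to 2682 in Caki2+PBRM1. Of 8 markers of renal epithelial or ccRCC cells, 7 passed the filter, with PAX8 at 1888 to 2190.0, while CA9 had 0 to 15.2. Markers of endothelial cells (4) and leukocytes (3) were all under the filter, as were 2 of 4 fibroblast markers and 4 of 5 of cardiomyocytes, with MYH6, MYH7 and TNNT2 at 0. Of 5 neuronal markers, 4 passed, and their summed count was 3239 to 3559 in the controls and 6011 to 6150 with PBRM1. NEFL, which encodes a neurofilament protein, made up most of this sum and rose (log2 fold change 0.91, adjusted p = 4.09e-17). SYT1, a synaptic vesicle protein, also rose (log2 fold change 0.56, adjusted p = 5.05e-07). SNAP25, which acts in vesicle fusion, had lower values with PBRM1 and did not pass (log2 fold change -0.17, adjusted p = 0.170), while RBFOX3 was at 5.67 to 14.2 and SLC17A7 at 0 to 3.36. The part of this neuronal list in the results below was not tested. Caki2+Vector A stood apart from the other controls: chi-square per degree of freedom was 3.09 and 2.84 against Vector B and C, and 1.19 to 1.34 in the other replicate pairs.

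Most KCN genes were silent or nearly silent in Caki2 cells. The 31 genes past the filter are 29.0% of the family, whereas 52.4% of all genes passed. A further 52 members had reads but stayed under the filter, and 24 had 0 reads in all 6 samples, which allows a level of up to 3 reads in each library. These 24 are 22.4% of the family, close to the 23.6% of all genes that had 0 reads in all 6 samples. By class, 11 of 40 voltage-gated subunits passed, 4 of 16 inward rectifiers, 6 of 15 tandem pore domain channels, 3 of 8 ion-activated channels, 7 of 17 accessory subunits and none of 11 noncoding RNAs named after KCN genes. Some branches had low sums. The 8 KCNA genes, which encode the Kv1 pore subunits, summed to 2.83 to 5.68 without PBRM1 and 1.78 to 9.75 with it. KCND1, KCND2 and KCND3, the Kv4 pore subunits, summed to 4.79 to 9.47 without PBRM1 and 9.78 to 15.2 with it. Pore subunits without a read in any sample include KCNA1, KCNA4, KCNA5, KCNH5, KCNJ3, KCNJ9, KCNK18 and KCNU1.

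**Figure D1:**
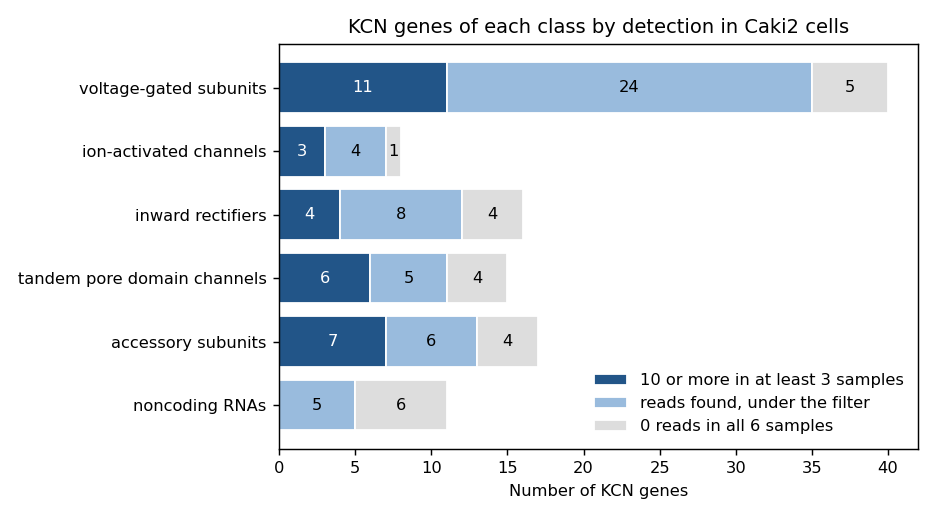
Number of KCN genes (x axis) in each class (y axis), split into genes past the filter (10 or more in 3 samples or more), genes with reads under that filter and genes with 0 reads in all 6 samples. In every class the genes past the filter are fewer than the rest, with 11 of 40 voltage-gated subunits and none of the 11 noncoding RNAs past it.

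Of the genes nearest to the filter, KCND1, KCNAB3 and KCNG3 were just outside it, where the lowest of their 3 highest values was 8.52, 8.0 and 7.56. Just inside it were KCNC1, KCNIP2 and KCNN1, at 13.2, 13.4 and 16.1. Of the 31 genes, 27 reached 10 in all 6 samples. KCNC1 reached 10 in the 3 controls and in none of the PBRM1 samples. KCNK2 reached 10 in 1 control, and KCNIP2 and KCNK12 in 2 controls each, against all 3 PBRM1 samples. KCNC1, KCNK2 and KCNK12 passed the filter through the group in which they were higher. This does not hold for KCNIP2, whose mean was 12.2 without PBRM1 and 12.5 with it.

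With PBRM1, 13 of the 30 tested members rose and 4 fell (limma, adjusted p under 0.05 by Benjamini-Hochberg over all 13303 genes tested), and 13 did not pass. Among the higher were KCNK2, KCNV1, KCNJ2, KCNQ3, KCNJ16, KCNAB1, KCNMB4, KCNN4, KCNAB2, KCNH1, KCNMA1 and KCNK3. Lower were KCNC1, KCNH3, KCNQ5 and KCNJ11. These counts include KCNK2 and KCNC1, which passed the filter only through the group in which they were high. The share higher was 43.3%, against 16.2% of all genes tested, and the share lower was 13.3%, against 13.0%. The groups did not overlap for 13 members that were higher and 6 that were lower with PBRM1, against 22.1% and 19.6% of all genes tested. The median log2 fold change was 0.20 over the 30 members and -0.00358 over all genes tested. Among called genes, the median size of the log2 fold change was 0.76 for the members and 0.31 for all genes. A call needs a larger change where errors are wider. The median SE of the log2 fold change was 0.16 over the tested members and 0.083 over all genes tested. These median sizes are therefore not comparable. Without Vector A, the library that stands apart, 11 members were higher and 3 lower. The summed normalized count of the family was 3883, 4020.0 and 4099 in Caki2+Vector A, B and C and 4901, 4769 and 4827 in Caki2+PBRM1 A, B and C, which is 0.0446 to 0.0468% and 0.0525 to 0.0538% of all reads on genes.

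**Figure D2:**
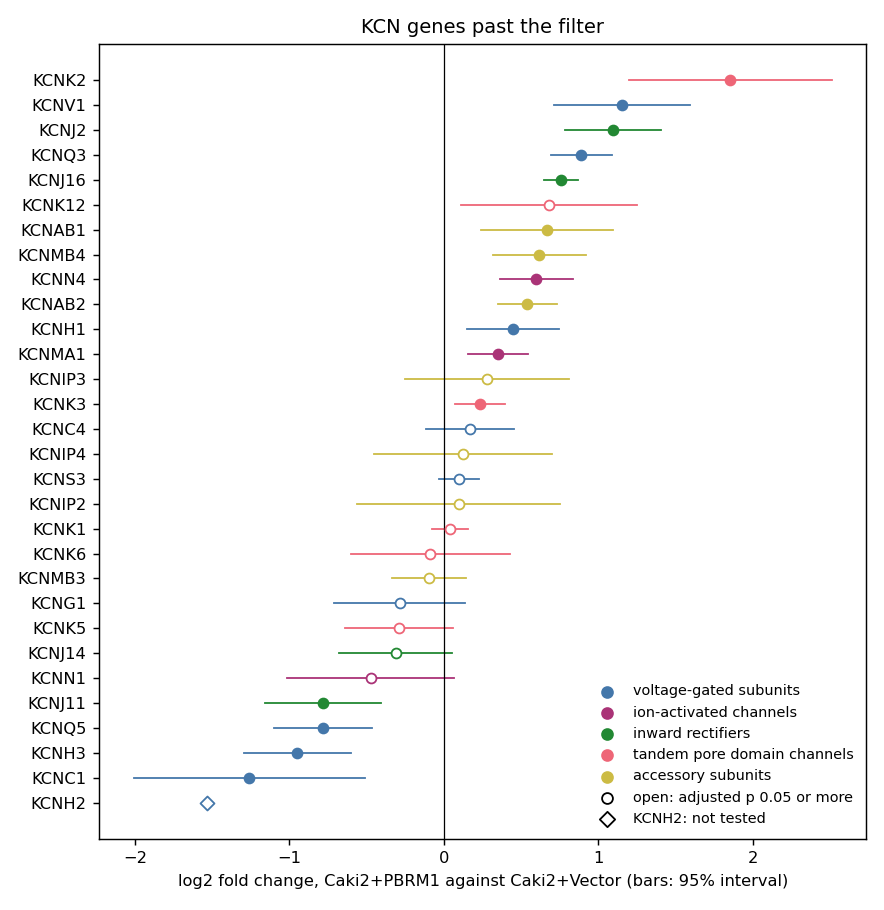
Log2 fold change of Caki2+PBRM1 against Caki2+Vector (x axis) for 30 KCN genes past the filter (y axis), colored by class, with the 95% interval of the limma fit as a bar. Filled circles passed an adjusted p of 0.05, open circles did not, and KCNH2 (diamond, -1.53) was not tested. The tested genes run from KCNC1 at -1.26 to KCNK2 at 1.86, with more filled circles to the right of 0 (12) than to the left (4).

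Among the KCNH genes, KCNH2 encodes hERG, the channel that repolarizes the heart and that many tumor lines express. Its normalized count was 131, 170.1 and 167 in Caki2+Vector A, B and C and 49.8, 53.3 and 55.4 in Caki2+PBRM1 A, B and C. All 3 samples with PBRM1 were below all 3 controls, averaging 156 ± 21.8 for Caki2+Vector and 52.8 ± 2.81 for Caki2+PBRM1 (mean ± SD, n = 3 each), with a log2 fold change of -1.53. KCNH2 lies on GRCh37 chromosome 7, 150642049 to 150675409, minus strand. Its share of all KCN counts was 3.36 to 4.23% in the controls and 1.02 to 1.15% with PBRM1. Of the KCNE subunits that can bind hERG, KCNE1 had no reads and KCNE2 had 5.68, 3.78 and 10.8 in the controls and 10.8, 6.22 and 3.36 with PBRM1.

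KCNH3, a channel of the ELK branch known from the brain, fell as well. Its values were 63.4, 66.1 and 63.5 in Caki2+Vector A, B and C and 29.2, 32.9 and 36.9 in Caki2+PBRM1 A, B and C, without overlap, for a log2 fold change of -0.95 (SE 0.17, limma adjusted p = 6.46e-05). KCNH3 shares 43 exonic bases with MCRS1 on the opposite strand, and whether the counting used strand is not given in the sources used here. KCNH1, or EAG1, is another channel found in many tumors, and it moved the other way. KCNH1 had 54.9, 57.6 and 77.9 in Caki2+Vector A, B and C and 80.2, 92.4 and 85.6 in Caki2+PBRM1 A, B and C, and the highest control lay close under the lowest PBRM1 sample. The log2 fold change of 0.45 (SE 0.15, limma adjusted p = 0.0211) did not pass without Vector A (0.35, adjusted p = 0.0676), Vector B (0.39, adjusted p = 0.0856), PBRM1 B (0.40, adjusted p = 0.101) or PBRM1 C (0.45, adjusted p = 0.0638), nor with DESeq2 (adjusted p = 0.0976). KCNH7 stayed under the filter with 4.73, 8.50 and 2.40 in the controls and 1.08, 0.889 and 0 with PBRM1, and KCNH5 had no reads. Of the KCNH genes past the filter, KCNH2 and KCNH3 thus had less RNA with PBRM1 and KCNH1 had more.

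The KCNQ genes encode Kv7 channels, which open at voltages near rest and give the M current of neurons. KCNQ3 rose and KCNQ5 fell. The counts of KCNQ3 were 128, 162 and 134 in Caki2+Vector A, B and C and 266, 247 and 271 in Caki2+PBRM1 A, B and C, 1.85-fold higher on average, with a log2 fold change of 0.89 (SE 0.096, limma adjusted p = 1.72e-08). For KCNQ5 they were 116, 109.6 and 86.3 in Caki2+Vector A, B and C and 74.7, 48.0 and 58.8 in Caki2+PBRM1 A, B and C, with a log2 fold change of -0.78 (SE 0.15, limma adjusted p = 2.95e-04). Neither gene had overlapping groups. KCNQ5-AS1, which shares exonic bases with KCNQ5 on the opposite strand, was at 0 to 0.889. Per kb of transcript, the ratio of KCNQ3 to KCNQ5 was 0.603, 0.810 and 0.855 in the controls and 1.96, 2.83 and 2.54 with PBRM1. By this measure KCNQ5 was the higher of the pair in every control, and KCNQ3 in every PBRM1 sample. The order in the controls rests on the canonical transcript lengths, 11.583 kb for KCNQ3 and 6.364 kb for KCNQ5. Without division by length, KCNQ3 had the higher count in every sample. The transcripts used in Caki2 cells are not known from these data, so the order in the controls is not resolved. KCNQ1, which works in epithelia with KCNE subunits, was at 2.17 to 4.72. This pair and the other sets of partners named here were picked after their values were seen.

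Kv3 channels, encoded by the KCNC genes, open and close fast and support high firing rates. KCNC1 fell from a low level, 14.2, 15.1 and 13.2 in Caki2+Vector A, B and C and 3.25, 8.89 and 5.04 in Caki2+PBRM1 A, B and C, with a log2 fold change of -1.26 (SE 0.37, limma adjusted p = 0.00947). KCNC1 passed the filter only through the controls, the group in which it was high, so that its fold change and test carry little support. KCNC1 lost its call without PBRM1 A (-0.97, adjusted p = 0.0587) and with DESeq2 on recovered reads (-1.29, adjusted p = 0.0851), and it could not be fitted without any 1 of the controls. KCNC4 did not pass, with 68.2 to 105 over the 6 samples (log2 fold change 0.17, adjusted p = 0.390), and KCNC2 was at 0 to 2.83.

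Silent modifier subunits, which act on Kv2 channels, were present. KCNS3 (Kv9.3) is among the most abundant KCN genes here and did not pass, with 531, 511 and 520.2 in the controls and 594, 578 and 508 with PBRM1 (log2 fold change 0.10, adjusted p = 0.249, 95% interval -0.03 to 0.23). KCNG1 (Kv6.1) did not pass either, with 27.5, 39.7 and 45.5 and 30.3, 29.3 and 30.2 (log2 fold change -0.29, adjusted p = 0.318). KCNV1 (Kv8.1) rose 2.29-fold, from 15.1, 18.9 and 18.0 to 37.9, 38.2 and 42.8, with a log2 fold change of 1.15 (SE 0.22, limma adjusted p = 1.24e-04). The lowest KCNV1 value with PBRM1 was above the highest control by more than the range of either group. KCNB2, a Kv2 pore subunit that such modifiers bind, had 1 read in Caki2+Vector C and none in the other libraries.

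**Figure D3:**
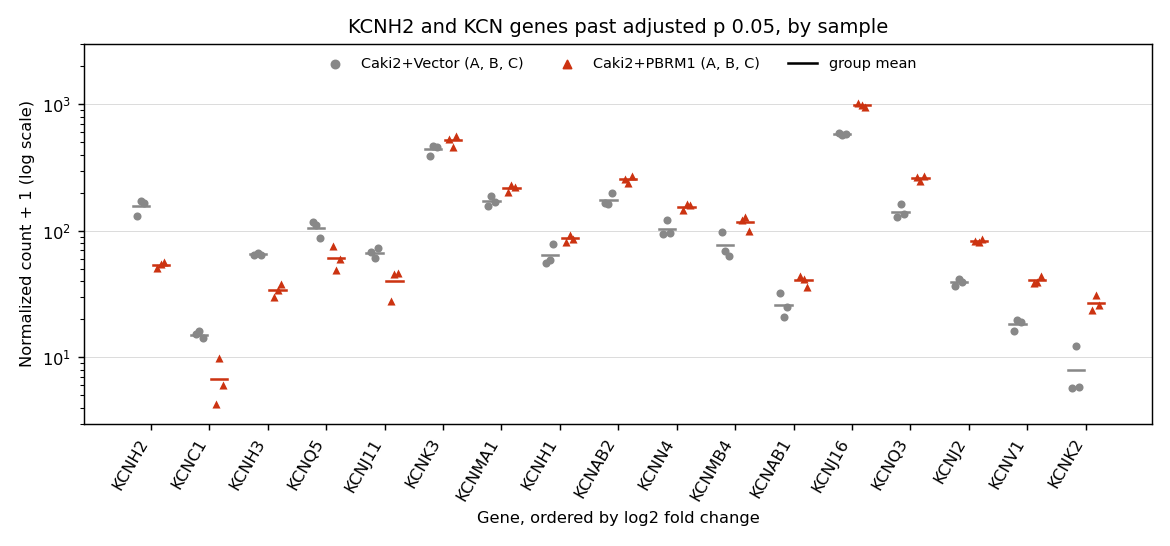
Normalized count + 1 (y axis, log scale) in each sample for KCNH2 and 16 other KCN genes past an adjusted p of 0.05, ordered by log2 fold change (x axis). Gray circles are Caki2+Vector A, B and C, red triangles are Caki2+PBRM1 A, B and C, and lines are group means. The groups overlap for KCNK3 only, at 392 to 469.6 in the controls and 459 to 565 with PBRM1.

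Of the 3 calcium-activated channels past the filter, KCNMA1 and KCNN4 rose. KCNMA1, the BK channel, which calcium and depolarization open together, had 155, 187 and 169 in Caki2+Vector A, B and C and 200.4, 230.2 and 222 in Caki2+PBRM1 A, B and C. Its groups did not overlap, with a log2 fold change of 0.35 (SE 0.094, limma adjusted p = 0.00492). KCNN4, the intermediate-conductance calcium-activated channel known from red cells, lymphocytes and epithelia, had 92.8, 120.0 and 94.7 in Caki2+Vector A, B and C and 144, 161 and 159 in Caki2+PBRM1 A, B and C. It also showed no overlap, with a log2 fold change of 0.60 (SE 0.11, limma adjusted p = 1.76e-04). KCNN1, a small-conductance channel, had 16.1, 20.8 and 27.6 in the controls and 15.2, 16.0 and 13.4 with PBRM1, lower in each PBRM1 sample but not past the test (log2 fold change -0.47, adjusted p = 0.189). The sodium-activated channels KCNT1 and KCNT2 were under the filter, KCNT2 at 3.60 to 10.7.

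Among the BK beta subunits, KCNMB4, the form typical of the brain, rose together with the pore. KCNMB4 had 96.6, 69.0 and 62.3 in Caki2+Vector A, B and C and 120.2, 129 and 98.2 in Caki2+PBRM1 A, B and C, with a log2 fold change of 0.62 (SE 0.15, limma adjusted p = 0.00205), and the highest control was Vector A. KCNMB3 was at 107 to 121 and 95.7 to 116 and did not pass (log2 fold change -0.10, adjusted p = 0.575, 95% interval -0.34 to 0.14). KCNMB1, the smooth muscle form, had no reads, and KCNMB2 had 1 read in 1 library.

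Of the 4 inward rectifiers past the filter, 2 rose and 1 fell. KCNJ16 encodes Kir5.1, which joins Kir4.1 in the basolateral membrane of the kidney tubule. Its counts were 595, 569.7 and 578 in Caki2+Vector A, B and C and 1015, 979 and 955 in Caki2+PBRM1 A, B and C, 1.69-fold higher on average, with a log2 fold change of 0.76 (SE 0.053, limma adjusted p = 2.19e-12), the smallest SE of the 30 tested members. KCNJ16 supplied 14.1 to 15.3% of all KCN counts in the controls and 19.8 to 20.7% with PBRM1. KCNJ10, which encodes Kir4.1, was at 0 to 3.60, near the level of 3 reads. KCNJ2, the strong rectifier Kir2.1 of heart and muscle, had 36.0, 40.6 and 38.4 in Caki2+Vector A, B and C and 82.3, 80.9 and 85.6 in Caki2+PBRM1 A, B and C. These values were 2.16-fold higher with PBRM1, with a log2 fold change of 1.10 (SE 0.15, limma adjusted p = 1.58e-06), and the PBRM1 samples were all above the controls.

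KCNJ16 and KCNJ2 are neighbours on GRCh37 chromosome 17, both on the plus strand, at 68049570 to 68131749 and 68164814 to 68176185, with 33.1 kb between them. The nearest protein-coding genes past the filter on either side were MAP2K6 (log2 fold change -0.20, adjusted p = 0.140) and SOX9 (0.25, adjusted p = 5.44e-04), both with smaller changes than the KCNJ pair. KCNJ2-AS1, which overlaps exons of KCNJ2 on the other strand, was at 2.83 to 7.58. The next closest pair of tested members was KCNC1 and KCNJ11 on chromosome 11, 345.4 kb apart, and both of these fell. KCNC1 passed the filter only through the controls, the group in which it was high, so the shared direction of this pair carries little support.

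KCNJ11 encodes Kir6.2, the pore of the ATP-sensitive channel that couples metabolism to membrane potential. It fell, with 67.2, 59.5 and 71.9 in Caki2+Vector A, B and C and 27.1, 44.4 and 45.3 in Caki2+PBRM1 A, B and C and a log2 fold change of -0.78 (SE 0.18, limma adjusted p = 0.00164). PBRM1 A was the lowest of the 6 samples, and without it the log2 fold change was -0.55 (adjusted p = 0.0244). The sulfonylurea receptors that Kir6.2 needs for surface channels, ABCC8 and ABCC9, were under the filter at 2.52 to 6.50 and 0.947 to 6.71, and KCNJ8, the other ATP-sensitive pore, was at 0 to 4.44. KCNJ14 did not pass, at 38.2 to 60.6 (log2 fold change -0.31, adjusted p = 0.204; without Vector B -0.50, adjusted p = 0.0493), and it shares exonic bases with GRWD1 on the same strand.

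**Figure D4:**
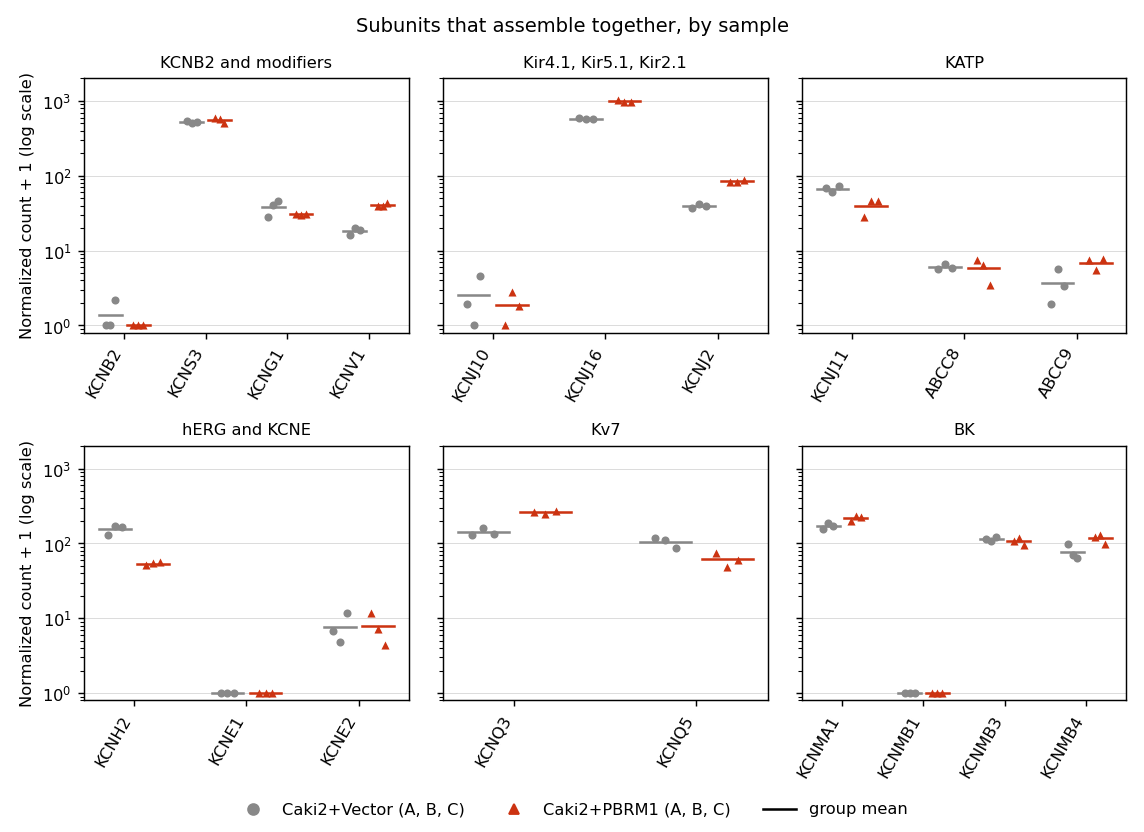
Normalized count + 1 (y axis, log scale) by sample for 6 sets of subunits known to assemble with each other (x axis, gene), with Caki2+Vector A, B and C as gray circles, Caki2+PBRM1 A, B and C as red triangles and group means as lines. KCNJ2, plotted beside KCNJ10 and KCNJ16, is the neighbour of KCNJ16 in the genome. KCNS3, KCNG1 and KCNV1 are present while KCNB2 has at most 1 read in a library, KCNJ16 is present while KCNJ10 is at 0 to 3.60, and KCNQ3 and KCNQ5 move in opposite directions.

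Of the tandem pore domain channels, KCNK2 and KCNK3 were called. KCNK2 is TREK-1, a leak channel opened by membrane stretch and by lipids such as arachidonic acid. Its values were 4.73, 11.3 and 4.79 in Caki2+Vector A, B and C and 22.7, 30.2 and 25.2 in Caki2+PBRM1 A, B and C, 3.75-fold higher on average, with a log2 fold change of 1.86 (SE 0.32, limma adjusted p = 4.50e-05) and a 95% interval 1.20 to 2.51. The level was low, since Vector A and C had 5 and 4 reads and Vector B 12. KCNK2 passed the filter only through the group in which it was high, so that its fold change and test carry little support. KCNK2 lies on GRCh37 chromosome 1, 215179118 to 215410433, plus strand. KCNK3, or TASK-1, which closes in acid, had 392, 469.6 and 458 in Caki2+Vector A, B and C and 531, 459 and 565 in Caki2+PBRM1 A, B and C. PBRM1 B was below Vector B, so the groups overlapped, with a log2 fold change of 0.24 (SE 0.077, limma adjusted p = 0.0242). KCNK3 did not pass without Vector A (0.15, adjusted p = 0.0650), PBRM1 A (0.21, adjusted p = 0.109) or PBRM1 C (0.17, adjusted p = 0.167), nor with DESeq2 (adjusted p = 0.0600).

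KCNK1, or TWIK-1, is a weak leak channel of kidney and brain. It was at 608, 584 and 648 in the controls and 618, 619.5 and 654 with PBRM1 (log2 fold change 0.04, adjusted p = 0.648), and its 95% interval of -0.08 to 0.16 leaves room only for a small change. KCNK5, the alkali-activated channel TASK-2 of the proximal tubule, was lower in every PBRM1 sample, at 38.6 to 43.6 against 44.5 to 53.9, but did not pass (log2 fold change -0.29, adjusted p = 0.212). KCNK6 (TWIK-2) was at 17.8 to 31.1 (log2 fold change -0.09, adjusted p = 0.829). KCNK12 was at 9.47 to 15.6 in the controls, lower than the 18.4 to 21.3 of the PBRM1 samples, and came closest to the threshold of the genes that did not pass (log2 fold change 0.68, adjusted p = 0.0665). Without Vector C it passed (0.86, adjusted p = 0.0318). The level of KCNK12 is uncertain, as for other genes with overlapping exons.

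The accessory subunits that passed besides KCNMB3 and KCNMB4 bind Kv1 or Kv4 pores, all of which were under the filter. KCNAB1 and KCNAB2 encode beta subunits of Kv1 channels, which resemble aldo-keto reductases, and both rose. KCNAB2 had 164, 162 and 199 in Caki2+Vector A, B and C and 256, 237 and 269 in Caki2+PBRM1 A, B and C, with no overlap and a log2 fold change of 0.54 (SE 0.093, limma adjusted p = 4.07e-05). KCNAB1 had 31.2, 19.8 and 24.0 in Caki2+Vector A, B and C and 43.3, 40.9 and 35.3 in Caki2+PBRM1 A, B and C, with no overlap and a log2 fold change of 0.67 (SE 0.21, limma adjusted p = 0.0159). Its change did not pass without Vector B (0.52, adjusted p = 0.0877), PBRM1 A (0.61, adjusted p = 0.0769) or PBRM1 B (0.65, adjusted p = 0.0601), nor with DESeq2 (adjusted p = 0.111). Their Kv1 partners are the KCNA genes, of which KCNA7 had the most reads, at 0.889 to 8.67. KCNIP2, KCNIP3 and KCNIP4 encode calcium-binding partners of Kv4 channels, were at 7.19 to 15.1, 14.2 to 21.0 and 13.3 to 31.2, and did not pass (adjusted p = 0.857, 0.454 and 0.790). The Kv4 pore gene KCND1 was just under the filter, at 4.79 to 8.52 in the controls and 8.39 to 13.0 with PBRM1, not far from KCNIP2. KCNIP2 shares 270 of the 2424 bases of its canonical transcript with KCNIP2-AS1 on the opposite strand. KCNIP4 shares 1587 of 2370 with PACRGL, also on the opposite strand. Whether the counting used strand is not given, so the level of KCNIP4 in particular is uncertain.

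The 13 members that did not pass had log2 fold changes from -0.47 (KCNN1) to 0.68 (KCNK12) and adjusted p from 0.0665 to 0.857. The 8 of them with the highest means were KCNK1, KCNS3, KCNMB3, KCNC4, KCNJ14, KCNK5, KCNG1 and KCNK6. The members had wider errors than most genes, with a median SE of the log2 fold change of 0.16 against 0.083 over all genes tested, which limits what the test could call among them.

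Per kb of transcript, the order of the abundant channels changed at few places. KCNK1 was first in both groups, with a mean normalized count per kb of 298 without PBRM1 and 306 with it. KCNS3 went from 222 to 239 and KCNJ16 from 146 to 247. KCNS3 was in place 2 and KCNJ16 in place 3 in the controls, where their ranges did not overlap, and with PBRM1 the ranges overlapped (217 to 254 and 239.6 to 255), so their order is not resolved there. Next came KCNMB3 (105 to 98.1), KCNK3 (71.0 to 83.7), KCNN4 (52.4 to 79.1) and KCNAB2 (41.8 to 60.8), in the same order of means in both groups. The place of KCNMB3 rests on its short canonical transcript of 1.085 kb. Without division by length, its mean count in the controls was 114, below the 175 of KCNAB2. KCNMB3, KCNK3 and KCNN4 were apart in the controls. With PBRM1, KCNMB3 overlapped KCNK3, at 88.2 to 107, and KCNK3 overlapped KCNN4, at 74.1 to 91.2 and 73.7 to 82.2. By means, KCNH2 was in place 8 in the controls, at 36.3, and in place 16 with PBRM1, at 12.3. Its range in the controls, 30.4 to 39.6, overlapped that of KCNAB2 (38.7 to 47.6). With PBRM1 its range, 11.6 to 12.9, overlapped those of KCNAB1 (11.2 to 13.7) and KCNJ11 (7.94 to 13.3). Neither exact place is therefore resolved. KCNK1, KCNS3, KCNJ16 and KCNK3 together gave 53.1 to 54.7% of the KCN counts in the controls and 55.2 to 56.3% with PBRM1.

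**Figure D5:**
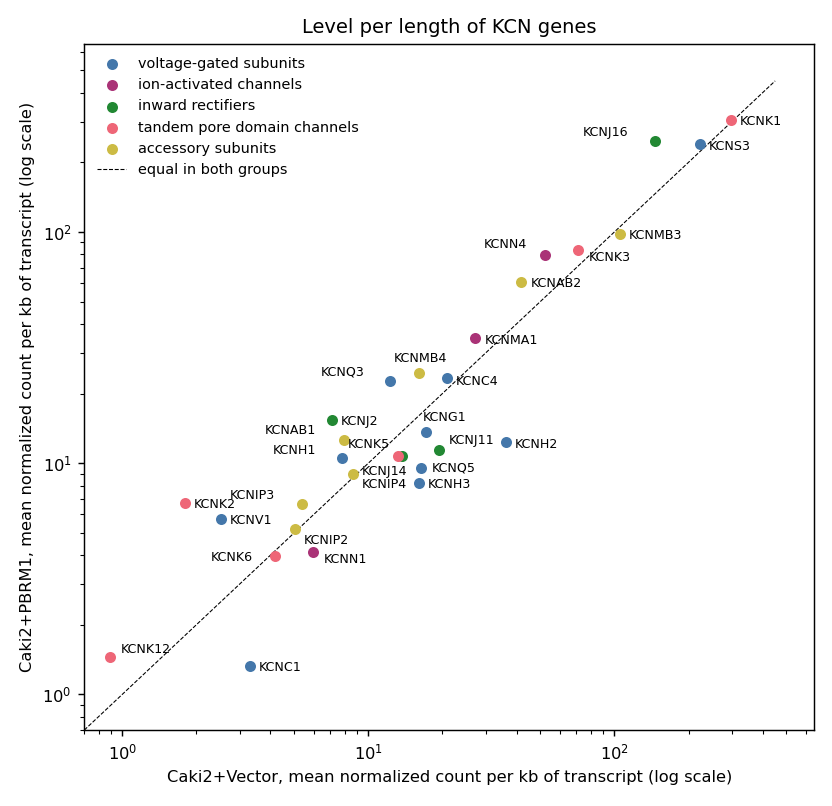
Mean normalized count per kb of the canonical GENCODE transcript in Caki2+Vector (x axis, log scale) and Caki2+PBRM1 (y axis, log scale), 1 point for each of 30 KCN genes past the filter, colored by class, with a dashed line where both groups are equal. KCNK1 and KCNS3 lie close to the line, KCNJ16 above it (146 to 247) and KCNH2 well below it (36.3 to 12.3).

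Of 10 K+ channel genes known from the kidney tubule, 4 passed the filter, namely KCNJ16, KCNMA1, KCNK1 and KCNK5. KCNJ16 and KCNMA1 rose, and KCNK1 and KCNK5 did not pass the test. KCNA10, KCNE1 and KCNJ15 had no reads. KCNJ1, which encodes ROMK, the apical secretory channel of the distal nephron, had reads in Caki2+PBRM1 B only (2.67). KCNJ10 and KCNQ1 stayed near or under the level of 3 reads, as given above.

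Genes that move K+ or act with K+ channels but are not named KCN were examined for comparison. Of these 44 genes, 21 passed the filter and 9 had no reads. With PBRM1, 4 rose and 2 fell, close to the 16.2% and 13.0% called among all genes tested, and the median log2 fold change of the 21 was 0.058. Those described here are cotransporters, a pacemaker channel and a kinase. The cotransporters SLC12A2 (NKCC1), which takes up K+ with sodium and chloride, and SLC12A4 (KCC1), which lets K+ and chloride out, both rose (log2 fold change 0.21, adjusted p = 0.0121, and log2 fold change 0.39, adjusted p = 6.61e-05). HCN4, a pacemaker channel opened by hyperpolarization, was at 6.61 to 14.4 in the controls and rose to 20.6 to 26.9 (log2 fold change 1.30, adjusted p = 0.00110). HCN4 reached 10 in 1 control, so it too passed the filter through the group in which it was high. STK39 (SPAK), a kinase that acts on these cotransporters, fell slightly and with overlapping groups (log2 fold change -0.20, adjusted p = 0.0371). SLC12A2 did not pass with DESeq2 (adjusted p = 0.0653) or without PBRM1 C (0.0713). STK39 did not pass with DESeq2 (adjusted p = 0.112) or without Vector B (0.104), Vector C (0.0914), PBRM1 B (0.238) or PBRM1 C (0.164).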

How the data were processed

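RNA-Seq of poly(A) RNA from 3 Caki2+Vector and 3 Caki2+PBRM1 samples (paired-end, Illumina) was analysed from 1 table per sample, with groups and replicate letters taken from the sample labels. According to the methods and the submitters' processing notes, the authors aligned reads to hg19 with STAR, counted them on 25369 genes with htseq-count and normalized them with DESeq2. Versions and the strandedness of the library are not given in the sources used here. The values the authors deposited are a signal per gene, namely normalized counts without division by gene length. Whole reads could be recovered from them, with 100% of values within 0.1 of a whole read, and size factors were 0.834 to 1.19. Between 7312955 and 10835355 reads fell on genes in a library, and limits given for 3 reads cover counting error only.

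Genes at 10 or more normalized counts in 3 samples or more (13303) entered the comparison on log2(normalized count + 1) with limma 3.58.1 in R 4.3.3 (trend, robust), so fold changes of low genes are understated. P-values were adjusted by Benjamini-Hochberg over all 13303 genes, with 0.05 as the threshold, and 3886 genes were called. On the recovered reads, edgeR 4.0.16 (quasi-likelihood test) called 4004 genes and DESeq2 1.42.0 called 2553. The code was checked on simulated counts with known changes. The 15 alternatives were edgeR, DESeq2, 3 other filters, pseudocounts of 0.5 and 4, TMM scaling, a replicate block and leaving out each sample.

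The KCN members and all lists were chosen with earlier results of these data known. Named genes are KCNH2, every member past the threshold, the 8 members with the highest mean among those that did not pass, the 3 nearest to the filter on each side, the kidney tubule genes and the partner genes past the threshold. Some genes that meet this rule are not reported here, and the figures leave them out, while counts include them. Other genes are named as partners or neighbours of these and were chosen after their values were seen. Positions and transcript lengths come from GENCODE v44 on GRCh37 (103 of 107 members matched by symbol or older symbol), and upstream sequences from RefSeq on GRCh38.p14 (80 of 107). KCNJ18, a near-identical copy of KCNJ12, has 0 reads, so the level of KCNJ12 is uncertain.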

Additional observations from a re-analysis of the deposited data

How the results depend on the processing

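Of the KCN members other than KCNH2, 13 were higher and 4 lower with PBRM1. These counts were 13 and 4 with edgeR, 10 and 3 with DESeq2, 13 and 5 with no filter (which adds KCNH7), 13 and 3 with a mean of at least 10, and 12 and 3 with at least 10 in every sample, where KCNC1 and KCNK2 could not be fitted. Leaving out 1 sample gave 11 to 14 higher and 3 to 4 lower. With the replicate block the counts were 13 and 4, as in the unblocked fit. The replicate letters do not pair the samples: deviations from the group means correlated at 0.00587, -0.00767 and 0.0138 for samples with the same letter (A, B and C) and at -0.0243 to 0.0173 for different letters. Of the 17 called members, 13 kept their call under every alternative in which they were fitted, and KCNAB1, KCNC1, KCNH1 and KCNK3 lost it under at least 1. The alternatives gave 546 single-gene values, for the members past the filter and the K+ transport partners that were called. None turned its direction in a call, and 521 counted as unchanged. Unchanged means on the same side of the threshold or, for KCNH2, which has no test, moved by less than the SD within groups. Among the K+ transport partners, 2 were lower, 1 with DESeq2 and 1 to 3 when 1 sample was left out (1 without Vector B, Vector C, PBRM1 B or PBRM1 C). The cause was not tested. Depth limits the 76 members under the filter, of which 24 had no reads, and p-values of members with few reads (KCNC1, KCNK2) rest on the spread of small counts.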

Other observations

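Other ion channel families of the same files give the setting for the potassium channels. Taken by symbol, 76 genes fell under voltage-gated sodium channels, calcium channel subunits, chloride channels and TRP channels. They include TRPC4AP (tested, adjusted p = 0.189) and TRPM2-AS (0 reads), which are not channel genes. Of the 76, 33 passed the filter, and 6 were higher and 3 lower with PBRM1 (limma, adjusted p under 0.05). These shares are close to the 16.2% and 13.0% called among all genes tested, and the median log2 fold change of the 33 was -0.03. Of 6 sodium channel genes tested, 3 were called higher, beside 16.2% of all genes. SCN2A, a neuronal sodium channel, had 10.4, 12.3 and 9.59 in Caki2+Vector A, B and C and 23.8, 29.3 and 22.7 in Caki2+PBRM1 A, B and C, with a log2 fold change of 1.16 (SE 0.27, limma adjusted p = 0.00125). It reached 10 in 2 of the 3 controls, so it passed the filter through the PBRM1 samples. SCN9A and SCN8A were also higher, by 0.69 (adjusted p = 0.0255) and 0.48 (adjusted p = 0.0379) on the log2 scale, and the groups of SCN8A overlapped.

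Calcium channel genes were called in both directions. CACNA1H, which encodes the T-type channel Cav3.2, had 249, 258 and 316 in the controls and 166, 165 and 170.4 with PBRM1, and changed by -0.70 on the log2 scale (SE 0.092, adjusted p = 6.12e-07). CACNB2 (-0.90, adjusted p = 0.0343) and CACNG8 (-0.84, adjusted p = 0.0144) were lower as well, while CACNB4 (1.24, adjusted p = 0.00348) and CACNA2D3 (0.26, adjusted p just under 0.05) were higher. CACNB2 was at 14.2 to 18.9 in the controls and 5.42 to 10.9 with PBRM1, so it passed the filter through the controls, where it was high. CACNB4 was at 5.67 to 7.57 in the controls and 15.1 to 21.7 with PBRM1. It passed the filter only through the group in which it was high, so its test carries little support. CLCN7, a lysosomal chloride transporter, was higher by 0.20 (adjusted p = 0.00410). These genes were named because they passed the threshold, and how their calls change under the alternatives was not tested.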
